A study of Mus musculus with 4 samples.

Results

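Pre-hypertrophic chondrocytes (pre-HCs) were followed here as the growth plate cells that hold Pth1r, the receptor for parathyroid hormone-related protein (PTHrP), with no or little Col10a1. They were chosen from their own transcript counts. A barcode had to have at least 1600 genes detected and at most 10% of its unique molecular identifiers (UMIs) from mitochondrial genes. It then needed Col2a1, the main collagen of cartilage, at 100 or more and Pth1r at 5 or more UMIs per 10000 (per10k), Col10a1, the collagen of hypertrophic chondrocytes (HCs), under 20 per10k, at most 2 UMIs of the leukocyte gene Ptprc and fewer than 5 UMIs of the proliferation genes Top2a and Mki67 together. Of 14181 barcodes, 8256 passed the limits on genes and mitochondrial RNA and 396 passed all of them. The pre-HCs were therefore 4.80% of the kept cells (exact 95% interval 4.35 to 5.28) and 22.2% (20.3 to 24.2) of the 1782 chondrocytes that were not cycling.

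The cells came from the proximal and distal ends of 2 tibiae of 1 male mouse at postnatal day 6 (P6). The mouse carried Col10a1Cre, a Cre driven in HCs by the Col10a1 locus, with Rosa26-Tdtomato, which marks HCs and the cells that descend from them, and it was Irx3 +/Δ and Irx5 +/-, described by the submitters as a heterozygous control. Every group below came from that mouse, but the Irx3 copy is removed by the Cre, so cells in which the Cre has acted can differ from the rest in Irx3. No wild type mouse is among these data. The 4 sequencing entries of the series were counted together as 1 library, so no value has a biological replicate, no test between groups was possible, and every interval below covers counting error only.

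In the growth plate, PTHrP made near the resting zone acts through Pth1r, a receptor that raises cyclic AMP, to keep columnar chondrocytes from maturing. Chondrocytes that leave this range stop dividing, enlarge, and secrete Indian hedgehog (Ihh), which in turn raises PTHrP output and drives the growth of the cells above. Pre-HCs sit at this turning point, with Pth1r and Ihh on and the cell cycle inhibitor Cdkn1c high, and HCs that follow make Col10a1 and prepare the matrix for mineral.

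The pre-HC barcodes held 11866876 of the 158281984 UMIs of the whole matrix. Depth per pre-HC was 5845 UMIs in the shallowest cell, 30191 at the median and 63722 in the deepest, with a median of 4526 genes and 3.30% mitochondrial UMIs. They were compared with 1308 Pth1r-low chondrocytes, which met the same limits except that Pth1r was under 5 per10k (median 18932 UMIs), and with 78 Col10a1-high chondrocytes, which had Col10a1 at 20 per10k or more and any level of Pth1r (median 32389 UMIs). Other kept cells served as background: 674 bone-forming cells with Col1a1 at 100 per10k or more, 1357 Ptprc-positive cells and 544 haemoglobin-rich cells, with medians of 14883, 12954 and 12838 UMIs. Since depth differed between groups, most shares of cells are given both as counted and after thinning to 5000 UMIs. Those of the reporter are as counted only. Thinning left out 63 Ptprc-positive, 6 bone-forming, 4 Pth1r-low and 1 Col10a1-high cells that were shallower and 0 pre-HCs.

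The limits cut through a continuous range. The 3 pre-HCs nearest to the Pth1r limit had 5.00, 5.02 and 5.04 per10k, and the 3 nearest cells outside had 5.00, 4.96 and 4.94 per10k. The 2 cells nearest to the Col10a1 limit on either side had 19.6 and 18.9 per10k inside and 20.2 and 20.3 per10k outside. Those near the Col2a1 limit were 117, 129 and 134 per10k inside and 52.6, 40.6 and 31.1 per10k outside, so the Col2a1 limit fell in a gap. A pre-HC held 3 Pth1r UMIs at the lowest, 28 at the median and 158 at the highest, and 8 cells had fewer than 10. Of the 78 Col10a1-high chondrocytes, 63 would also have reached the Pth1r limit, and 115 of the 674 bone-forming cells did (17.1%), so Pth1r alone did not mark the pre-HCs.

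Pth1r lies on mouse chr9:110722085-110747145, Ihh on chr1:74945315-74951672, Cdkn1c on chr7:143458339-143461050 and Sgms2 on chr3:131318985-131491411, all on the reverse strand of GRCm38 (mm10). Promoters are shown for Pth1r, which defined the cells, and for Ihh and Sgms2. The ranking given under the processing left out Pth1r and Col10a1. Within it, Ihh and Sgms2 had the highest ratios over Pth1r-low chondrocytes. Each window runs from 250 bases before to 50 bases after a RefSeq start on GRCm38.p6, 5′ to 3′ on the reverse strand, and capitals mark a match to the RUNX letters TGTGGT.
Pth1r, chr9:110747096-110747395, the most upstream of its 3 RefSeq starts: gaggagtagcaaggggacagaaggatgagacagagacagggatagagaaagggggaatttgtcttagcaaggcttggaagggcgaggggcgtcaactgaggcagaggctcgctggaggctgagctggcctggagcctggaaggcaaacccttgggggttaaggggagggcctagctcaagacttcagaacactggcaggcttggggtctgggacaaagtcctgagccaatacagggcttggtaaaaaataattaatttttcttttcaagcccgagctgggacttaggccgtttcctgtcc
Ihh, chr1:74951623-74951922, its 1 RefSeq start: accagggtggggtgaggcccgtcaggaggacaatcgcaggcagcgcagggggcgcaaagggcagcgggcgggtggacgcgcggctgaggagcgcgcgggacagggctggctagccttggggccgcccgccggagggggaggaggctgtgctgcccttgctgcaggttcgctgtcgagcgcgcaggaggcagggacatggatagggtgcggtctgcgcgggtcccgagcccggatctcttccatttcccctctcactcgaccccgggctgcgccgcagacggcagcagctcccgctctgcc
Sgms2, chr3:131491394-131491693, the most upstream of its 6 RefSeq starts: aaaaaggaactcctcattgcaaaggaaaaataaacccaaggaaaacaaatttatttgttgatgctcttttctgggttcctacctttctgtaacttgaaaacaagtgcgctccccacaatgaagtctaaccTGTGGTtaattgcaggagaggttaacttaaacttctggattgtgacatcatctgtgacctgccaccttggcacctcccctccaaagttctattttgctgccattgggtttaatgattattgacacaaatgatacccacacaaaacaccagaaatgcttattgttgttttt
The windows were searched on both strands for RUNX (TGTGGT), a cyclic AMP response element (TGACGTCA), GLI (GGGTGGTC) and MEF2 (CTA, any 4 bases and TAG), whose letters do not contain one another. Across the 22 RefSeq windows found for 12 of 14 genes of the pre-HC pattern, 2 held the RUNX letters, 1 the MEF2 letters, and 0 the cyclic AMP or GLI letters. Of all 32851 mouse windows of that length, 16.8% held RUNX, 3.69% MEF2, 1.79% the cyclic AMP element and 0.807% GLI, so matches among these genes were few and are only a description of the letters.

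The pre-HC label was checked against the 3 markers that the limits did not use. Ihh was at 134 CPM (UMIs scaled to a common total per group; exact Poisson 95% interval 127 to 141) in the pre-HCs, 13.0 CPM (11.6 to 14.5) in Pth1r-low chondrocytes and 223 CPM (205 to 242) in Col10a1-high chondrocytes. It was thus 10.3-fold higher (9.15 to 11.6) in the pre-HCs than in Pth1r-low chondrocytes and 1.66-fold higher (1.51 to 1.83) in Col10a1-high chondrocytes than in the pre-HCs. An Ihh UMI was found in 66.4% of pre-HCs (31.6% thinned), 11.0% of Pth1r-low (3.53%) and 73.1% of Col10a1-high chondrocytes (44.2%). In haemoglobin-rich and Ptprc-positive cells, which should lack Ihh, the shares were 1.10% (0.735%) and 2.21% (1.0%). The thinned share in Pth1r-low chondrocytes (interval 2.59 to 4.68) lay above these background shares, and that in pre-HCs lay higher again.

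Cdkn1c, whose product p57 halts the cell cycle, was at 3618 CPM in the pre-HCs, 947 CPM in Pth1r-low and 3067 CPM in Col10a1-high chondrocytes, a ratio of 3.82 over the Pth1r-low cells. Sgms2, which makes sphingomyelin at the plasma membrane, was at 1096, 124 and 917 CPM, a ratio of 8.81 (8.47 to 9.16). All 3 markers were thus higher where Pth1r was, though they had been proposed with these data known, and none of the 4 separated pre-HCs from Col10a1-high chondrocytes by 2-fold. Pth1r itself, which chose the cells, was at 1253 CPM in the pre-HCs, 165 CPM in Pth1r-low and 1494 CPM in Col10a1-high chondrocytes, and Col10a1, also used, was at 158, 13.5 and 10674 CPM.

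**Figure D1:**
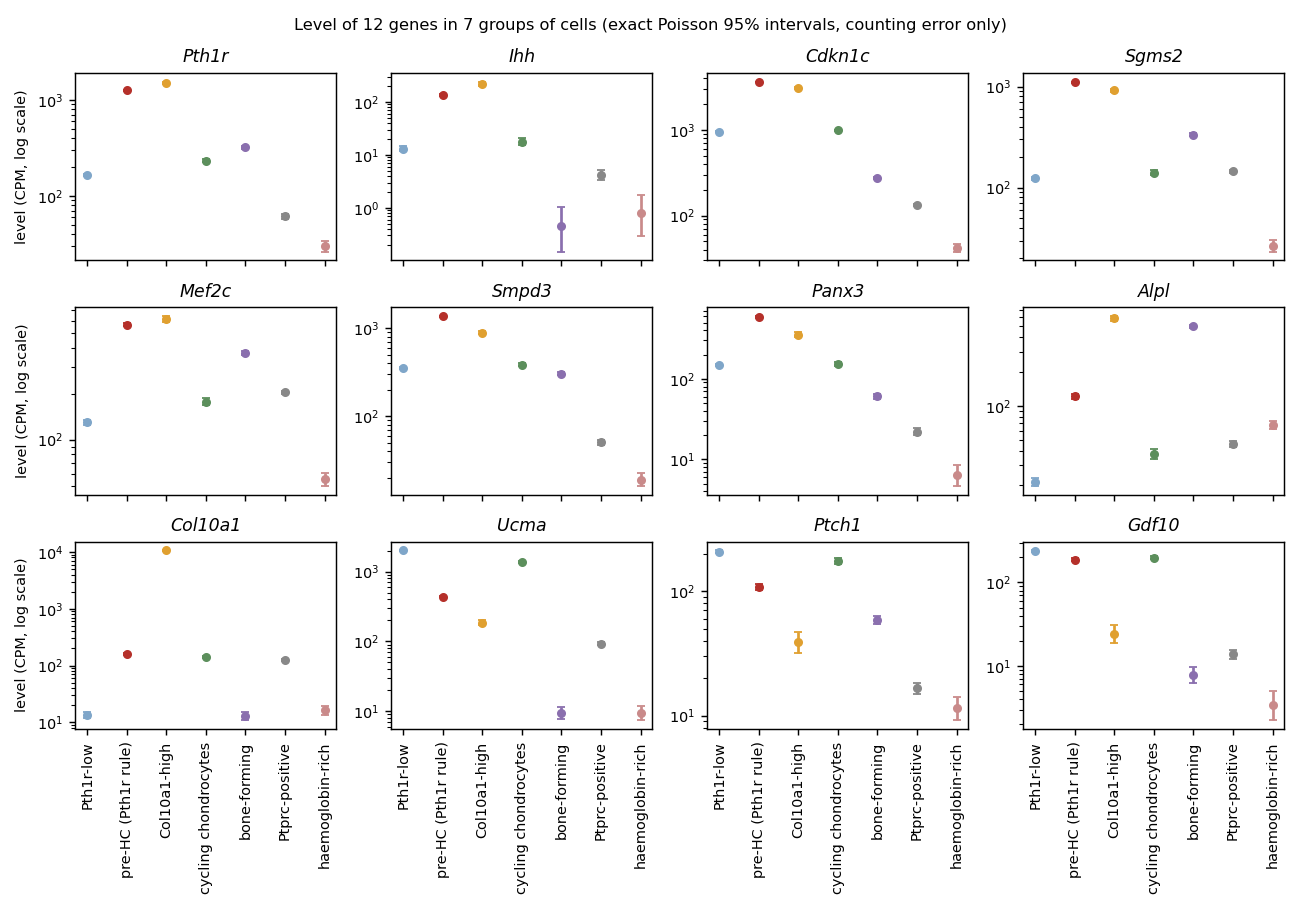
Levels of 12 genes in CPM, on log axes, in the 7 groups of cells, with exact Poisson 95% intervals that cover counting error only. Ihh, Cdkn1c and Sgms2 stood with Pth1r in the pre-HCs and Col10a1-high chondrocytes, while Ucma was at 2013 CPM in Pth1r-low chondrocytes, 438 CPM in pre-HCs and 186 CPM in Col10a1-high chondrocytes.

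Many more genes than these markers separated pre-HCs from Pth1r-low chondrocytes. Of 7043 genes at 10 CPM or more in either group, 186 were at least 2-fold higher in the pre-HCs (2.64%) and 281 at least 2-fold lower (3.99%), on the log2(CPM + 1) scale. The median log2 ratio over all of them was -0.04, and when the groups were scaled by median ratios it was 0.07 and the share of higher calls went from 39.8% to 49.9%. Pth1r and Col10a1, which chose the cells, were left out of the ranking. By the named rule, the 12 genes with the highest ratios among the rest were Ihh, Sgms2, Grb14, Fxyd3, Alpl, Ehd3, Serinc5, Cd200, Car8, Mustn1, Mef2c and Eps8l2.

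Alpl, the tissue-nonspecific alkaline phosphatase that frees phosphate for mineral, was at 122 CPM in the pre-HCs and 21.4 CPM in Pth1r-low chondrocytes, 5.69-fold higher (5.15 to 6.28). It was higher again in Col10a1-high chondrocytes, at 589 CPM, 4.85-fold over the pre-HCs. Mef2c, a transcription factor that drives hypertrophy, was at 562 CPM in the pre-HCs against 130 CPM, a 4.34-fold ratio, and at 613 CPM in Col10a1-high chondrocytes, so it differed little between pre-HCs and HCs. Grb14, an adaptor of the insulin receptor, was at 111 CPM against 14.8 CPM. Serinc5, a membrane protein, was at 378 CPM against 76.5 CPM, and an adhesion glycoprotein gene, Cd200, was at 50.1 CPM against 9.91 CPM.

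At the other end, the 12 lowest ratios were those of Acta2, Dlk1, Cpm, Ucma, Rrad, Penk, Apoe, BC100530, Lyz2, S100a8, Mlf1 and Bglap. Ucma, a matrix protein of upper zone cartilage, was at 438 CPM in the pre-HCs and 2013 CPM in Pth1r-low chondrocytes, 4.60-fold higher in the latter (4.47 to 4.73). Dlk1, a membrane protein of the Notch ligand family, was at 36.7 CPM against 203 CPM. Cpm, a carboxypeptidase, was at 16.9 CPM against 82.6 CPM. Both groups thus kept these genes at measurable levels, with the pre-HCs on the low side.

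BC100530, Lyz2 and S100a8, known from myeloid cells, Bglap, from osteoblasts, and Acta2, from smooth muscle, were lower in the pre-HCs than in Pth1r-low chondrocytes, as were the marker sums of those cell types. The 7 leukocyte markers summed to 236 CPM in the pre-HCs, 691 CPM in Pth1r-low and 548 CPM in Col10a1-high chondrocytes, led by S100a9 at 132 CPM in the pre-HCs, where 2 of the 7 reached 10 CPM. The 6 erythroid markers summed to 1853, 5366 and 306 CPM, led by Hbb-bs at 1036 CPM, and the 8 osteoblast lineage markers to 1492, 2702 and 680 CPM, led by Col1a2 at 832 CPM. Bglap, the osteoblast gene for osteocalcin, whose reads may be shared with its near copy Bglap2, had 69.0% of its pre-HC UMIs in 5 cells, and Acta2 had 68.7%, S100a8 60.4%, BC100530 56.9% and Lyz2 52.1%. In Pth1r-low chondrocytes 5 of 1308 cells held 89.8% of the Bglap UMIs. The Bglap log2 ratio of -1.72 turned to 0.66 without the chondrocytes that reached 1000 per10k of haemoglobin or 100 per10k of Col1a1. The part of other cells' RNA in the calls of these genes was not tested.

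The 4 pericyte or smooth muscle markers summed to 39.3 CPM in the pre-HCs, 93.6 CPM in Pth1r-low (led by Acta2 at 60.6 CPM) and 13.0 CPM in Col10a1-high chondrocytes. The 5 endothelial markers summed to 28.2, 34.2 and 9.15 CPM, and the 4 osteoclast markers to 36.6, 66.0 and 78.5 CPM with 1 of them at 0 in the pre-HCs. Genes of the dissociation response summed to 4186 CPM in the pre-HCs, 5183 CPM in Pth1r-low and 3401 CPM in Col10a1-high chondrocytes, led in the pre-HCs by Fos at 1283 CPM.

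The PTHrP pathway, from ligand to transcription factors, was followed against Pth1r-low chondrocytes. Lists are counted here over the members that reached 10 CPM in either group, 21 of the 41 found for this one. Of these, 2 were higher (Pth1r and Mef2c), 1 was lower (Hdac4), and the median log2 ratio was -0.12. Over all genes 2.64% were higher and 3.99% lower, and each list count against Pth1r-low chondrocytes is to be read beside these shares. The 1 lower gene is thus near the background, and Pth1r had chosen the cells. The ligand gene Pthlh had a UMI in 1 of 396 pre-HCs and in 69 of 1308 Pth1r-low chondrocytes (5.28%), the former a share of 0.253% (0.00639 to 1.40). After thinning it was found in 0 pre-HCs and 3.14% of Pth1r-low chondrocytes, and haemoglobin-rich and Ptprc-positive cells had 0.368% and 0.0737% unthinned. Hdac4, the deacetylase that holds Mef2 proteins in check, was at 18.8 CPM in the pre-HCs and 41.0 CPM in Pth1r-low chondrocytes, a call lost with median-ratio scaling, under which 0 of the list were lower. Gnas, which encodes the stimulatory G protein downstream of Pth1r, was at 2235, 2228 and 1941 CPM in pre-HCs, Pth1r-low and Col10a1-high chondrocytes. No other member of the list passed 2-fold, so Pth1r, which chose the cells, and Mef2c were the list's only higher genes.

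The hedgehog list had members on either side between pre-HCs and Pth1r-low chondrocytes. Of 14 genes compared, 3 were higher in the pre-HCs (Ihh, Scube1 and Disp1) and 5 were lower (Gas1, Boc, Gli1, Scube2 and Gli2). Of the higher genes, Ihh was a proposed marker of the cells. The median log2 ratio was -0.37, or 0.01 with the groups scaled by median ratios. That scaling moved the median of all genes less, from -0.04 to 0.07, and it can change which genes reach 10 CPM. Disp1, which releases the lipid-bearing ligand from the cell, was at 10.8 CPM in the pre-HCs against 4.45 CPM, and Scube1, a secreted protein of a family that aids release, was at 66.4 CPM against 23.5 CPM.

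Among response genes, Gli1 was at 7.25 CPM in the pre-HCs against 23.6 CPM in Pth1r-low chondrocytes, and Ptch1, the hedgehog receptor that the pathway itself induces, at 109 CPM against 208 CPM (log2 ratio -0.93, under 2-fold). Gas1, a coreceptor, was at 2.70 CPM against 18.8 CPM, and Boc, another, at 7.08 CPM against 23.5 CPM. In Col10a1-high chondrocytes Ptch1 was at 38.9 CPM, more than 2-fold below the pre-HCs, whereas Gli1, at 1.53 CPM, was under 10 CPM in both groups and was not compared.

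The Wnt list had members on both sides, with 5 of 22 higher in the pre-HCs (Frzb, Wnt10b, Wnt5a, Wnt4 and Wnt11) and 4 lower (Lef1, Sfrp5, Fzd2 and Sfrp1). Wnt4, a secreted ligand, was at 430 CPM in the pre-HCs, 164 CPM in Pth1r-low and 186 CPM in Col10a1-high chondrocytes. It was 2.63-fold over the former and 2.32-fold over the latter, and so was highest in the pre-HCs among the 3. Sfrp5, a Wnt antagonist, was at 32.4, 104 and 2.67 CPM, and Frzb, a further antagonist, at 75.2, 21.2 and 162 CPM. The antagonists thus ran in opposite directions across the 3 groups.

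Among BMP genes, 4 of 23 were higher (Chrdl1, Bmp6, Chrdl2 and Bambi) and 0 lower. Chrdl1, a secreted BMP antagonist, was at 48.4 CPM in the pre-HCs, 7.92 CPM in Pth1r-low and 22.1 CPM in Col10a1-high chondrocytes, so it too was highest in the pre-HCs. Bmp6, a ligand, was at 13.7, 2.81 and 119 CPM. Natriuretic peptide signalling, which promotes growth plate elongation through cyclic GMP, had 4 genes compared, of which the cyclic GMP-dependent kinases Prkg1 and Prkg2 were higher. Prkg2 was at 242, 98.6 and 248 CPM.

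In the FGF list, 2 of 9 genes were lower in the pre-HCs, the receptors Fgfr1 and Fgfr2, and 0 higher. Fgfr3, the receptor that slows chondrocyte growth, was at 486 CPM in the pre-HCs, 291 CPM in Pth1r-low and 326 CPM in Col10a1-high chondrocytes, under the 2-fold limit in both comparisons. Fgfr1 was at 34.0, 89.6 and 159 CPM, so the pre-HCs had the least of it among the 3 groups. Of the IGF list, 3 of 16 were lower (Pappa2, Igfbp3 and Igfbp4) and 0 higher, and of the TGF-beta list 2 of 13 were lower (Inhba and Ltbp3) and 0 higher.

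Of 18 cyclins and exit genes, 2 were higher in the pre-HCs than in Pth1r-low chondrocytes (Cdkn1c, a proposed marker of the cells, and Rb1) and 0 lower. Rb1, which blocks entry into DNA synthesis, was at 16.5 CPM against 4.29 CPM. Of 16 DNA replication genes, 7 were lower (Mcm2 to Mcm7 and Cdt1) and 0 higher, with a median log2 ratio of -0.83 beside -0.04 over all genes. These are genes of low level, with Mcm2, part of the replicative helicase, at 5.98 CPM against 14.4 CPM. The limit of 5 Top2a and Mki67 UMIs was a raw count and so was stricter per UMI in the deeper pre-HCs. With the rule applied to cells thinned to 5000 UMIs, 6 of 20 replication genes were lower and 0 higher, with a median of -0.69.

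Of 41 transcription factors of the chondrocyte lineage, 5 were higher in the pre-HCs (Mef2c, Irx5, Foxa2, Creb3l1 and Irx3) and 2 lower (Nfia and Nfib). Runx2, which drives hypertrophy and bone formation, was at 141, 127 and 116 CPM in pre-HCs, Pth1r-low and Col10a1-high chondrocytes, and Sox9, the factor that keeps chondrocyte identity, at 1039, 1191 and 552 CPM. Foxa2, a factor known to drive hypertrophy, was at 18.1 CPM against 5.00 CPM in Pth1r-low chondrocytes. The factors called were therefore not Runx2 or Sox9.

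The Irx genes, of which this mouse had a changed copy each, were low. Irx3 was at 13.0 CPM in the pre-HCs, 5.97 CPM in Pth1r-low and 23.3 CPM in Col10a1-high chondrocytes, and Irx5 at 22.7, 5.58 and 86.1 CPM. A UMI of Irx5 was found in 33.3% of pre-HCs (10.1% thinned), 8.79% of Pth1r-low (2.61%) and 79.5% of Col10a1-high chondrocytes (28.6%), beside 3.31% (1.29%) of haemoglobin-rich and 3.02% (1.24%) of Ptprc-positive cells. For Irx3 the shares were 26.5% (6.06%), 7.65% (2.68%) and 44.9% (13.0%), with 6.62% (2.57%) in haemoglobin-rich cells. At equal depth Irx5 thus stood above background in the pre-HCs, whereas the interval of Irx3 in the pre-HCs (3.92 to 8.88) reached that of haemoglobin-rich cells (1.41 to 4.28) but not that of Ptprc-positive cells (2.24%, 1.51 to 3.20), and Irx3 in Pth1r-low chondrocytes was at background. Whether a UMI came from an intact or a changed copy cannot be told from the counts.

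Of 41 cartilage matrix genes, 1 was higher in the pre-HCs than in Pth1r-low chondrocytes (Comp) and 2 were lower (Ucma and Dcn), with a median log2 ratio of -0.03, or 0.07 with median-ratio scaling, and both counts were near the shares over all genes (2.64% and 3.99%). Comp, which binds collagen fibrils, was at 6761 CPM against 3198 CPM, and Hapln1, which links aggrecan to hyaluronan, at 8693 CPM against 4375 CPM, just short of 2-fold. Aggrecan, Acan, was at 6803 and 6444 CPM. The list of resting and upper zone genes differed more, with 8 of 15 lower in the pre-HCs (Gas1, Ucma, Apoe, Sfrp5, F3, Clu, Mgst2 and Cmtm5), 2 higher (Fxyd3 and Foxa2) and a median log2 ratio of -1.05.

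Genes of hypertrophy and mineral were partly on. Of 33 compared, 8 were higher in the pre-HCs than in Pth1r-low chondrocytes (Col10a1, Ihh, Sgms2, Alpl, Cd200, Panx3, Smpd3 and Loxl4), 2 were lower (Bglap and Col1a1), and the median log2 ratio was 0.25. Col10a1 was limited by the rule, and Ihh and Sgms2 were proposed as markers, so 5 of the 8 stand outside the definition of the cells. Smpd3, a neutral sphingomyelinase needed for mineral, was at 1354, 354 and 883 CPM in pre-HCs, Pth1r-low and Col10a1-high chondrocytes, and Panx3, a channel of the pannexin family, at 590, 149 and 354 CPM. Both were highest in the pre-HCs among the 3 groups.

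Of 14 sphingolipid and membrane lipid enzymes 3 were higher in the pre-HCs (Sgms2, Smpd3 and Sptlc2) and 2 lower (Pla2g5 and Sphk1). An enzyme that makes sphingomyelin, Sgms2, and one that cleaves it, Smpd3, were thus both on the high side, but Sgms2 was a proposed marker of the cells. Of 47 secretory pathway and unfolded protein response genes 1 was higher (Creb3l1) and 0 lower, and of 27 oxygen sensing and glycolysis genes 1 was higher (Bnip3) and 0 lower, shares near the 2.64% of all genes. Bnip3, a mitophagy gene induced by low oxygen, was at 653 CPM against 316 CPM. Of 18 matrix proteases and inhibitors 2 were lower (Timp2 and Mmp2), or 0 with median-ratio scaling, of 16 adhesion and cilium genes 1 was higher (Itga1), and of 8 Notch genes 2 were lower.

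**Figure D2:**
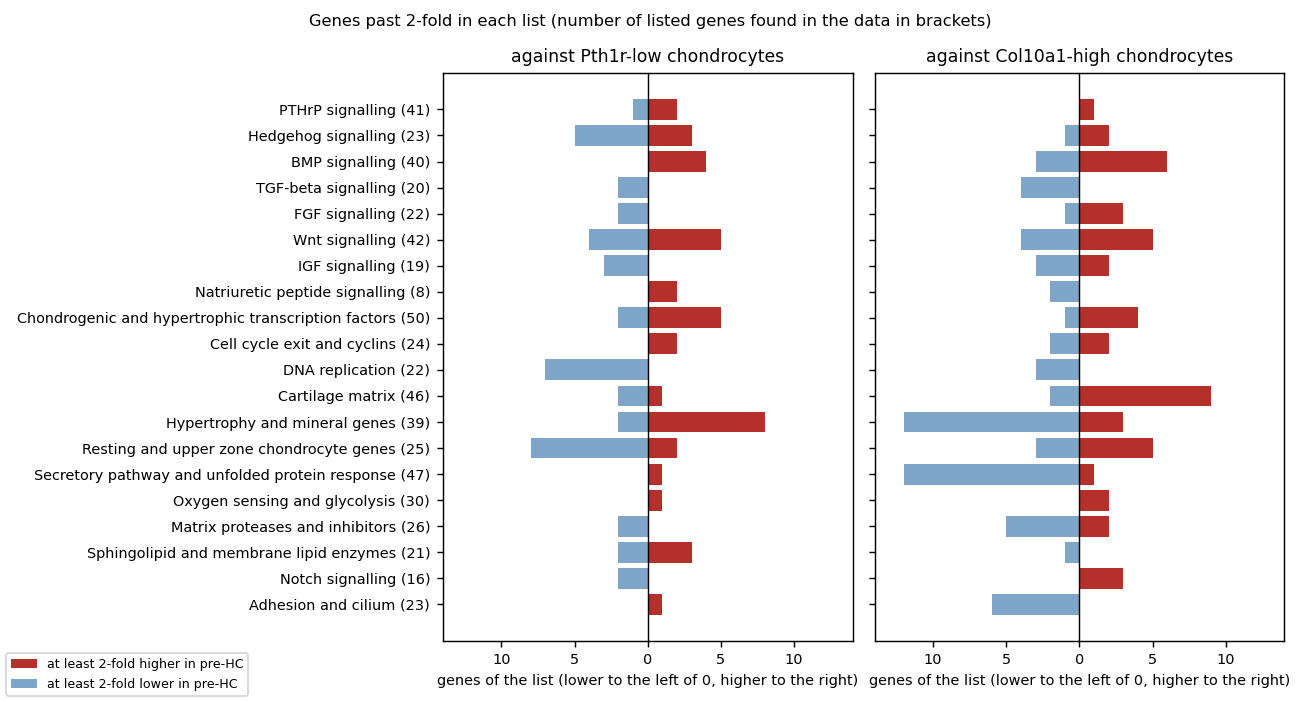
Number of genes of each list at least 2-fold higher (red, to the right) or lower (blue, to the left) in the pre-HCs, against Pth1r-low chondrocytes on the left and Col10a1-high chondrocytes on the right, with the number of listed genes found in brackets. Hypertrophy and mineral genes had 8 higher in the left panel and 12 lower in the right panel, and both counts include Col10a1, which the rule limited.

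Against Col10a1-high chondrocytes the pre-HCs differed in more genes. Of 7260 compared, 219 were at least 2-fold higher in the pre-HCs (3.02%) and 612 at least 2-fold lower (8.43%), with a median log2 ratio of -0.19. Median-ratio scaling moved that median to 0.05 and the share of higher calls from 26.4% to 50.6%, so the balance of directions rested on the scale, and the values below are to be read against a median of -0.19. The 12 highest ratios were those of Gdf10, Hbb-bs, Col1a1, Hbb-bt, Hba-a2, Hba-a1, H2-DMa, Hist1h2ac, Prelp, Pkdcc, C1qtnf3 and Clec11a. Haemoglobin and Col1a1 rested on few cells here, with 83.1% of the pre-HC UMIs of Hbb-bs and 71.0% of those of Col1a1 in 5 cells. Without the pre-HCs at the haemoglobin or Col1a1 limit, Hbb-bs, Hba-a1 and Col1a1 fell under 2-fold. Hbb-bs was then at 311 CPM against 163 CPM, Hba-a1 at 105 CPM against 59.1 CPM and Col1a1 at 148 CPM against 76.6 CPM. Hba-a1 and Hba-a2, and likewise Hbb-bs and Hbb-bt, are near-identical copies whose reads can be split between them, so their single values are uncertain.

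Gdf10, a secreted factor of the BMP family, was at 187 CPM in the pre-HCs, 239 CPM in Pth1r-low and 24.4 CPM in Col10a1-high chondrocytes, 7.68-fold over the latter (5.99 to 10.0). Prelp, a small leucine-rich matrix protein, was at 702, 933 and 145 CPM, and Scrg1, a secreted protein of cartilage, at 452, 624 and 126 CPM. In these 3 genes the pre-HCs were within 2-fold of Pth1r-low chondrocytes, unlike Ucma and most of the compared upper zone list. The cartilage matrix list as a whole had 9 of 41 higher in the pre-HCs (Prelp, Scrg1, Fmod, Epyc, Ucma, Slc26a2, Cnmd, Chst11 and Col27a1), 2 lower (Fn1 and Col6a2) and a median log2 ratio of 0.56.

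Col10a1, which set the border between these groups, was left out of the ranking. The 12 lowest ratios among the rest belonged to Ffar4, F13a1, AW112010, Lcn2, Spp1, Gpx3, Ibsp, Car6, Lox, Inhba, Aldh1a3 and Jam2. Ffar4, a receptor for long-chain fatty acids, was at 0.590 CPM in the pre-HCs and 104 CPM in Col10a1-high chondrocytes. Lox, which crosslinks collagen, was at 23.5 CPM against 430 CPM, and F13a1, a transglutaminase, at 16.2 CPM against 480 CPM. Spp1, the mineral-binding protein osteopontin, was at 293 CPM against 6757 CPM, 23.1-fold higher in Col10a1-high chondrocytes (22.2 to 23.9), and Ibsp, bone sialoprotein, at 87.5 CPM against 1567 CPM. These Col10a1-high levels also came from few of the 78 cells, since 5 cells held 52.9% of the Spp1, 49.8% of the Ibsp, 78.4% of the Lcn2, 82.8% of the Inhba and 69.7% of the AW112010 UMIs. The share was 68.9% for Jam2, 45.9% for Car6, 44.0% for F13a1 and 42.7% for Lox. For Gpx3, Ffar4 and Aldh1a3 it was 42.5%, 37.6% and 34.8%.

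The Spp1 and Ibsp values in the pre-HCs came from few cells as well, since 5 of them held 64.3% of the Spp1 and 86.8% of the Ibsp UMIs. Haemoglobin-rich cells, which should lack both, had 890 CPM of Spp1 and 214 CPM of Ibsp, at a median depth below that of the pre-HCs. The highest single pre-HCs had 253 per10k of Spp1 and 198 per10k of Ibsp, and 3 pre-HCs had Ibsp at 20 per10k or more, so a few cells held a high level while the median was 0.281 per10k for Spp1 and 0 for Ibsp. Of 33 hypertrophy and mineral genes, 12 were lower in the pre-HCs than in Col10a1-high chondrocytes (Col10a1, Spp1, Ibsp, Ank, Alpl, Mmp13, Loxl4, Timp3, Cst3, Cd200, Atp1b1 and Slc20a1) and 3 higher (Col1a1, Bglap and Car12), with a median log2 ratio of -0.54. The call of Col10a1 was fixed by the limit that separated these groups and is no result. Of the 3 higher genes, Col1a1 and Bglap had 71.0% and 69.0% of their pre-HC UMIs in 5 cells. Both fell under 2-fold without the pre-HCs at the haemoglobin or Col1a1 limit. Col1a1 was then at 148 CPM against 76.6 CPM in Col10a1-high chondrocytes, and Bglap at 17.5 CPM against 14.9 CPM. The list therefore split, with Smpd3 and Panx3 at or above the HC level and the mineral matrix genes far below it.

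Beside 8.43% of all genes, at least 25% of the compared members were lower in 6 further lists, the secretory pathway list and 5 others, with 6 of 15 adhesion and cilium genes (Cd44, Gja1, Itga6, Itgb5, Itga5 and Kif3a), 5 of 16 matrix proteases and inhibitors (Mmp13, Timp3, Ctsl, Ctsk and Htra1), 4 of 13 TGF-beta genes (Inhba, Tgfb3, Ltbp3 and Tgfb1), 3 of 12 DNA replication genes (Mcm6, Fen1 and Mcm7) and 2 of 6 natriuretic peptide genes (Npr3 and Ostn). With median-ratio scaling 3 of the adhesion genes and 4 of 17 proteases were lower. Of 47 secretory pathway genes 12 were lower and 1 higher (Plod2). Hspa5, the main chaperone of the endoplasmic reticulum, was at 985 CPM in the pre-HCs, 890 CPM in Pth1r-low and 3307 CPM in Col10a1-high chondrocytes. The median of the list was -0.20, close to the -0.19 of all genes, and with median-ratio scaling, which shifts every gene alike, it was 0.03 with 7 lower and 5 higher. Fn1, fibronectin, was at 1270, 1069 and 8424 CPM, another gene in which pre-HCs sat with the Pth1r-low cells.

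Of the signalling lists, the BMP list had 6 of 25 higher in the pre-HCs than in Col10a1-high chondrocytes (Gdf10, Smad6, Bmper, Id3, Chrdl1 and Id1) and 3 lower (Gdf5, Bmp6 and Bmp8a). The counts of these lists are to be read beside the shares over all genes in this comparison, 3.02% higher and 8.43% lower. The hedgehog list had 2 of 10 higher (Scube2 and Ptch1) and 1 lower (Scube3), and the PTHrP list 1 of 21 higher (Pde3a, a cyclic AMP phosphodiesterase) and 0 lower. With median-ratio scaling the hedgehog list had 5 of 11 higher and 1 lower, and the PTHrP list 3 of 20 higher and 0 lower. With cells thinned to 5000 UMIs they had 6 of 14 higher and 2 lower, and 3 of 23 higher and 1 lower. The Notch list had 3 of 8 higher (Hey1, Heyl and Hes1) and 0 lower, the FGF list 3 of 9 higher (Snai2, Fgf2 and Fgfr2) and 1 lower (Fgfr1), and the Wnt list 5 of 21 higher (Sfrp5, Sfrp1, Rspo3, Wnt4 and Fzd1) and 4 lower (Tcf7l2, Kremen1, Sfrp4 and Frzb). Of 40 transcription factors, 4 were higher (Hey1, Sox5, Hes1 and Dlx5) and 1 lower (Irx5). Of 27 oxygen and glycolysis genes 2 were higher (Car9 and Slc16a3) and 0 lower, with Car9, a carbonic anhydrase induced by low oxygen, at 18.3 CPM in the pre-HCs and 1.91 CPM in Col10a1-high chondrocytes.

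Within the pre-HCs, the cells were far from uniform. Pth1r itself ran from 5.00 per10k at the lowest through 9.87 at the median to 40.8 at the highest. Ihh ran from 0 through 0.604 to 8.93 per10k, Cdkn1c from 0.425 through 27.7 to 131 per10k, Sgms2 from 0 through 8.96 to 42.2 per10k and Mef2c from 0 through 4.90 to 17.7 per10k. No 5 cells dominated the markers, as the 5 with most UMIs held 11.5% of the Ihh and 4.97% of the Sgms2 UMIs.

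The pre-HCs were split by Pth1r into 201 cells at 5 to under 10 per10k, 139 at 10 to under 20 per10k and 56 at 20 per10k or more, with median depths of 28425, 30669 and 34235.5 UMIs. Ihh was at 66.3, 176 and 245 CPM in these, and Cdkn1c at 2406, 4219 and 5948 CPM. Sgms2 was at 589, 1372 and 2011 CPM, Mef2c at 394, 652 and 872 CPM, and Alpl at 53.6, 136 and 297 CPM. All 5 therefore went up with Pth1r within the pre-HCs. Ucma, Ptch1 and Gdf10 had their lowest levels in the highest bin, with Ucma at 579, 344 and 223 CPM, Ptch1 at 143, 90.4 and 45.8 CPM and Gdf10 at 242, 166 and 67.6 CPM. The cells share 1 library and the bins were cut on a gene of the rule, so these are descriptions of the range.

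A split by Col10a1, which the rule capped, gave the same order from 219 cells with no Col10a1 UMI through 136 under 5 per10k to 41 at 5 to under 20 per10k. Ihh was at 96.9, 158 and 240 CPM, Sgms2 at 919, 1145 and 1811 CPM and Alpl at 80.9, 120 and 326 CPM, while Ucma was at 556, 327 and 204 CPM. The cells with no Col10a1 UMI were 55.3% of the pre-HCs, and Ihh was already well above the Pth1r-low level of 13.0 CPM in them. A Col10a1 UMI was found in 44.7% of pre-HCs (24.5% thinned) beside 19.5% (7.35%) of haemoglobin-rich cells.

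**Figure D3:**
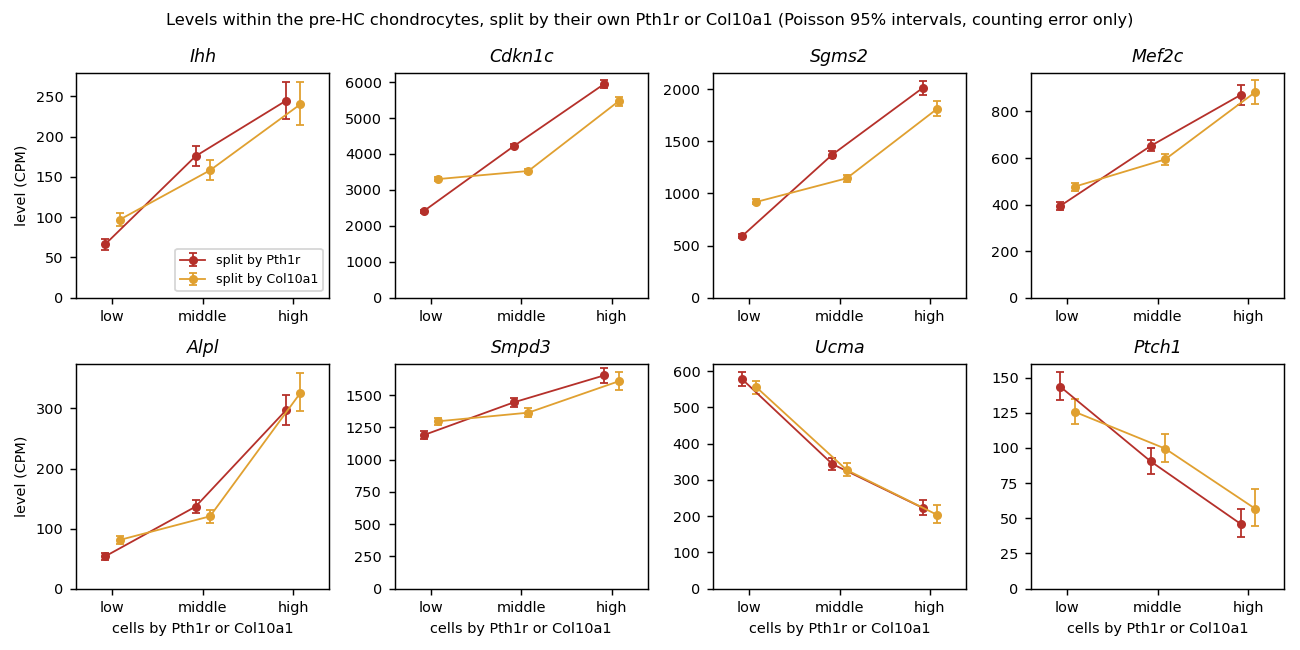
Levels in CPM of 8 genes within the 396 pre-HCs, from the lowest to the highest of 3 bins cut by each cell's own Pth1r (red) or Col10a1 (orange), with Poisson 95% intervals for counting error. Ihh went from 66.3 to 245 CPM across the Pth1r bins and Ucma from 579 to 223 CPM.

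Clustering of the pre-HCs alone gave 5 sub-clusters, numbered by rising median Pth1r. They are described by their leading genes and left unnamed. Sub-cluster 1 (37 cells) was led by Hes1, Pamr1, Smad6, Hey1, Lifr, Ptch1, Id3 and Xlr3c, which include targets of Notch, hedgehog and BMP signals, and had the least Ihh (62.6 CPM) and Sgms2 (386 CPM) with 709 CPM of Ucma. Sub-cluster 2 (133 cells) was led by Ngp, S100a9, Camp, S100a8, BC100530, Stfa1, Mt2 and Lyz2, which include neutrophil genes. Ngp was found in 28.6% of its cells and 34.2% of the other pre-HCs, so the higher level of Ngp came from few cells. Sub-cluster 3 (64 cells) was led by Sfn, Hilpda, Il11, Krt16, Adamts1, Arsi, Tm4sf1 and F3 and had the highest median mitochondrial share, 4.94%. It also held the most RNA of vessel markers, with 105 CPM over the 5 endothelial markers, 4 of them at 10 CPM or more, against 5.61 to 16.9 CPM in the other sub-clusters, and 147 CPM over the 4 pericyte or smooth muscle markers, led by Rgs5 at 99.6 CPM, against 12.8 to 26.2 CPM. The part of vessel cell RNA in its leading genes was not tested.

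Sub-cluster 4 (86 cells) was led by Espn, Cdsn, Nacad, Tnni2, Atf5, Qpct, H2-Ab1 and Car9. It held Egln1, an oxygen sensor, at 468 CPM and Ero1l, an oxidase of the endoplasmic reticulum, at 243 CPM. Neither was among its leading genes, and a role of low oxygen was not tested. Sub-cluster 5 (76 cells) was led by red cell and bone genes (Hbb-bs, Ibsp, Hbb-bt, Hba-a1, Hba-a2, Col1a1, Spp1 and Bglap) and had the most Pth1r, 1931 CPM, and Ihh, 206 CPM. Scrublet marked 7 of its 76 cells as doublets (9.21%) and 14 of all 396 pre-HCs (3.54%).

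All 7 pre-HCs at or above 1000 per10k of haemoglobin or 100 per10k of Col1a1 lay in sub-cluster 5. Without these cells its Hbb-bs went from 4350 to 848 CPM, Col1a1 from 1844 to 251 CPM and Ibsp from 392 to 150 CPM. Spp1 moved less, from 1009 to 784 CPM, and Mmp13, a collagenase of late HCs, went from 128 to 141 CPM, so these 2 did not rest on the same cells. Over all pre-HCs 5 cells held 79.2% of the Mmp13 and 64.3% of the Spp1 UMIs. The Pth1r of sub-cluster 5 went from 1931 to 2033 CPM and its Ihh from 206 to 218 CPM, so the marker levels were as large without them. Over all pre-HCs, leaving these cells out took Hbb-bs from 1036 to 311 CPM and Ihh from 134 to 135 CPM.

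**Figure D4:**
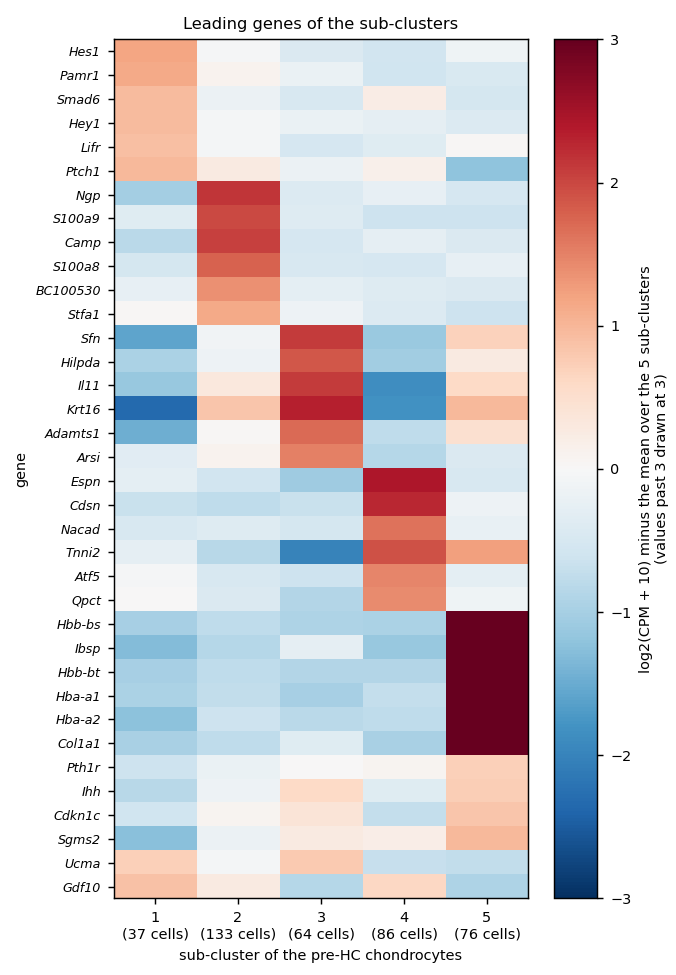
Leading genes of the 5 sub-clusters of pre-HCs with 6 further genes, as log2(CPM + 10) less the mean over the sub-clusters, in a colour scale held at 3 either way. Haemoglobin, Ibsp and Col1a1 stood out in sub-cluster 5, where 7 cells carried most of them, and neutrophil genes in sub-cluster 2.

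The lineage reporter bears on whether pre-HCs had made the Cre that Col10a1 drives. A cell with more than 14 UMIs of WPRE, an element at the end of the reporter transcript, was counted as reporter-positive. This held for 6 of 396 pre-HCs, 1.52% (0.558 to 3.27), beside 6 of 1308 Pth1r-low chondrocytes, 0.459% (0.169 to 0.996), and 37 of 78 Col10a1-high chondrocytes, 47.4% (36.0 to 59.1). Ptprc-positive and haemoglobin-rich cells gave 1.77% and 1.84%, so the pre-HC share as counted was at background. Reporter shares were not thinned. The pre-HCs were deeper, with a median of 30191 UMIs against 12954 and 12838 in those background cells. Bone-forming cells, with 137 of 674 or 20.3%, were far above it.

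By Col10a1 level, 2 of 219 pre-HCs with no Col10a1 UMI, 2 of 136 under 5 per10k and 2 of 41 above it passed the cutoff (0.913%, 1.47% and 4.88%), with intervals that overlapped. Of the 6 cells, 5 lay in sub-cluster 5. Without the barcodes that Scrublet marked as doublets, the share above the cutoff was 0.785% of 382 pre-HCs. The pre-HCs held 281 WPRE UMIs in 82 cells and 4 tdTomato UMIs in 4 cells. A tdTomato UMI was found in 1.01% of pre-HCs, 0.994% of Pth1r-low and 29.5% of Col10a1-high chondrocytes, and in 1.11% of Ptprc-positive and 1.10% of haemoglobin-rich cells, so by either reporter sequence the pre-HC share was near that of the background cells.

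**Figure D5:**
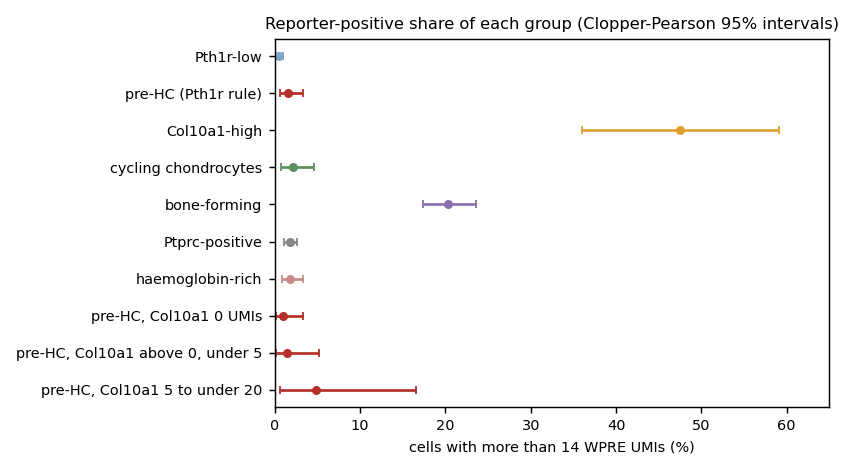
Percent of cells with more than 14 WPRE UMIs in each of the 7 groups and in the pre-HCs split by Col10a1 (per10k), with Clopper-Pearson 95% intervals for counting error. The pre-HCs (1.52%) lay with the background cells, far below Col10a1-high chondrocytes (47.4%).

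The genes whose levels were most like Pth1r over the 7 groups of cells were Grb14 (Pearson r = 0.996 of log2(CPM + 1)), Ccdc80 (0.993), Mustn1 (0.990), Enpp2 (0.983) and Frzb (0.980), followed by Ppfibp1, Ehd3, Vldlr, Dap and Pmp22. The groups share 1 library, and Pth1r set the border between some of them, so r is a description with n = 7. Ccdc80, a matrix protein, was at 533 CPM in the pre-HCs, 130 CPM in Pth1r-low, 921 CPM in Col10a1-high and 237 CPM in bone-forming cells.

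Mmp14, a membrane-bound protease, was at 34.2 CPM in the pre-HCs, 64.7 CPM in Pth1r-low, 40.4 CPM in Col10a1-high and 396 CPM in bone-forming cells. A UMI of it was found in 53.0% of pre-HCs (15.9% thinned), 52.6% of Col10a1-high chondrocytes (15.6%), 60.6% of Pth1r-low chondrocytes (25.7%), 92.9% of bone-forming cells (73.4%) and 16.4% of haemoglobin-rich cells (11.0%). At equal depth the pre-HCs thus had the gene less often than Pth1r-low chondrocytes (12.4 to 19.9 against 23.3 to 28.2), with an interval that reached that of haemoglobin-rich cells. Pth1r and Mmp14 occurred together in 15.9% of pre-HCs, 45.7% of bone-forming and 3.12% of haemoglobin-rich cells after thinning, with Pth1r required of the pre-HCs by the rule.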

How the data were processed

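Cells from tibiae were profiled by droplet single-cell RNA sequencing. The submitters' processing notes name Cell Ranger 3.1.0, Seurat 3 and the mm10 build. The annotation release was not given in the sources used here. A deposited matrix, of genes, holds raw UMI counts per gene and barcode (31053 genes, 14181 barcodes). A further deposited matrix holds counts of 98 exogenous sequences, from which WPRE, tdTomato, EGFP and CRE were read. The WPRE cutoff was taken from the study's methods, where it separated HC-derived from other osteoblasts.

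UMIs were summed over the cells of each group and scaled to CPM. Ratios had 1 CPM added, genes under 10 CPM in both groups were left out, and a call was 2-fold. Intervals were exact Poisson for levels, Clopper-Pearson for shares and conditional binomial for ratios, at 95%. With 1 library there were no replicates and no p-values. Doublets were marked with Scrublet (expected rate 10%) in scanpy 1.11.5 and kept, 588 of all 14181 barcodes (4.15%). Sub-clusters came from 15 principal components of 1500 variable genes and Leiden clustering at resolution 0.5, and their leading 8 genes were ranked by fold with 10 CPM added among genes found in at least 20% of the cells, a share set after the data were seen. Calculations were run in Python 3.11.15 and tested on simulated data with known ratios.

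The genes named were the rule's genes, the markers, members of 20 fixed lists, the 10 genes most like Pth1r, the leading sub-cluster genes, and, per comparison, the 12 highest and 12 lowest ratios at 50 CPM or more in the higher group, with 100 UMIs in all and a UMI in 10% of cells. Ribosomal, mitochondrial and predicted genes were passed over, and Pth1r and Col10a1, which chose the cells, were left out of the ranked genes. Members and lists were chosen with earlier results of these data known. Of 550 listed genes 547 matched. Alternatives changed the limits on cells, depth, scaling, filter and pseudocount, and 1, leaving out chondrocytes at the haemoglobin or Col1a1 limit, was added after the data were seen. Promoter windows and their build come from RefSeq, and gene positions from GENCODE M21, held here as a table for the mm10 build.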

Additional observations from a re-analysis of the deposited data

Results flagged for a closer look

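A signal appeared in exogenous sequences that no comparison used, and of these the labels do not place EGFP in this mouse. EGFP, a fluorescent protein, had 58 UMIs in the kept cells, and 10 of these lay in the pre-HCs, 1 in each of 10 cells, while Ptprc-positive cells held 1. CRE, the recombinase that this mouse carried as Col10a1Cre, had 4 UMIs in the kept cells and 0 in the pre-HCs. Each is a level of single UMIs, and the source was not tested.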

How the results depend on the processing

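No paired analysis was possible because the 4 sequencing entries form 1 library and share no numbered groups. With mitochondrial RNA limited to 5% the pre-HC share of kept cells was 6.89% and of non-cycling chondrocytes 25.0%, and the Ihh log2 ratio over Pth1r-low chondrocytes 3.07. With Pth1r at 10 per10k or more the share of kept cells was 2.36%, Ihh 3.82, and 450 genes were lower than in Pth1r-low chondrocytes. The other share was then 12.3%, but of a total without the 201 cells at 5 to under 10 per10k. Those cells were in no group under this setting. With Col10a1 under 5 per10k the share of kept cells was 4.30% and Ihh 3.12, and thinning cells to 5000 UMIs gave 5.53%. The mean over cells gave Ihh 3.55, against 3.27 as reported.

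Against Pth1r-low chondrocytes, a 50 CPM filter gave 84 higher and 70 lower, a 10 CPM pseudocount 81 and 94, and no filter 620 lower. Against Col10a1-high chondrocytes, higher and lower counts were 506 and 986 when thinned, 378 and 369 with median-ratio scaling, 576 and 1209 with no filter, 65 and 229 at 50 CPM, and 80 and 263 with the 10 CPM pseudocount. Fewer genes are tested at 50 CPM and more with no filter. The cause of the other moves was not tested. The Bglap log2 ratio over Pth1r-low chondrocytes, -1.72, turned to 0.68 without Col1a1-high cells, 1.94 when thinned and 0.66 without cells at the haemoglobin or Col1a1 limit. Of 1791 values of 199 ratios of named genes under alternatives, 1333 moved by less than counting error, 455 moved by more, and the 3 of Bglap were the only called ones to change sign. The reporter-positive share of pre-HCs ran from 0.785% without doublets to 2.05%. With 1 mouse, no replicate could be left out.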

Other observations

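Some genes of MHC class II, known from antigen-presenting cells, were present in the chondrocytes, while Cd74 and H2-Aa were low. H2-DMa, a peptide loading factor, was at 150 CPM in the pre-HCs, 206 CPM in Pth1r-low and 27.8 CPM in Col10a1-high chondrocytes, and 86.9% of pre-HCs had a UMI of it. H2-DMb1, its partner chain, was at 164, 201 and 61.7 CPM, and H2-Ab1, a chain of the presenting molecule, at 218, 145 and 136 CPM. By contrast Cd74, the invariant chain that leukocytes make with them, was at 1.94 CPM in the pre-HCs, and H2-Aa, the other chain of H2-Ab1, at 0.758 CPM. In sub-cluster 4 H2-Ab1 was at 506 CPM and was found in 100% of the cells.

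Cdsn, a gene of skin corneodesmosomes, was at 17.8 CPM in the pre-HCs, 3.51 CPM in Pth1r-low and 233 CPM in Col10a1-high chondrocytes. Among the pre-HCs it was at 80.3 CPM in sub-cluster 4 and 2.92 CPM in the others. Car8, a carbonic anhydrase-related protein, was at 98.9 CPM in the pre-HCs, 20.5 CPM in Pth1r-low and 42.3 CPM in Col10a1-high chondrocytes, and so was highest in the pre-HCs among the 3. These genes were picked after their values were seen.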
